A study of Mus musculus with 12 samples.

Results

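Tetraspanins are small membrane proteins that cross the membrane several times and carry a large extracellular loop. They bind one another and bind integrins, immunoglobulin-superfamily proteins and proteases, and so gather these partners into patches of membrane called tetraspanin-enriched microdomains. In basophils they are best known through CD63, which sits in the membrane of the secretory granules and appears on the surface when the granules fuse, so that its staining is read as a sign of degranulation. The genes described here are Cd9, Cd63, Cd81, Cd82, Cd37, Cd53 and Cd151, that is 7 genes chosen by symbol from the 31301 symbols of the deposited count table. All 7 were in the table, and all 7 were among the 10861 genes that passed the filter on low counts and were tested.

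Basophils were grown from wild-type C57BL/6J bone marrow for 7 days with either interleukin-3 (IL-3) at 0.3 ng/mL or thymic stromal lymphopoietin (TSLP) at 1 µg/mL, the dose of the treatment protocol (the sample characteristics print another unit). Bone marrow-derived basophils (BMBAs) of both cultures were sorted by flow cytometry into FcεRIαhi CD49blo cells, here immature and in the study pre-basophils, and FcεRIαlo CD49bhi mature cells. Each of the 4 groups (immature and mature, from IL-3 or from TSLP) had 3 libraries, and all cells had been kept in culture, so that no group is a basophil taken straight from tissue. The study describes 3 cultures per group, but whether the immature and mature libraries of a number came from the same dish is not stated. Library totals ran from 1720065 to 3685285 counts.

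The sorted cells had counts for all 7 genes of a basophil list (Mcpt8, Cd200r3, Prss34, Fcer1a, Ms4a2, Cpa3 and Gata2). In mature cells 5 of them were called lower and 2 higher with IL-3, where 46.2% of all genes were called. With TSLP 4 were lower and 1 higher, against 25.1% of all genes. Prss34 fell the most, 24.9-fold with IL-3 and 12.4-fold with TSLP. Itga2, which encodes the sorting marker CD49b, ran from 22.5 to 31.1 counts-per-million (CPM) in IL-3 immature and from 192 to 309 CPM in IL-3 mature libraries. It ran from 81.5 to 89.1 CPM in TSLP immature and from 96.9 to 209 CPM in TSLP mature libraries, with the lowest of the latter in TSLP mature 1. Fcer1a, which encodes the other sorting marker and which the gate sets lower in mature cells, ran from 1584 to 1614 CPM in immature and from 865 to 1267 CPM in mature IL-3 libraries. With TSLP it was at 1262, 1222 and 1530 CPM in immature and at 1779, 871 and 1141 CPM in mature libraries, so that TSLP mature 1 lay above every other library, and its maturation difference was not called (log2 -0.08, edgeR adjusted p = 0.835). Without TSLP mature 1 it was called lower (log2 -0.50, edgeR adjusted p = 0.048). That library stood apart in other ways too. Its summed neutrophil markers (8 genes) were 672 CPM against 16 and 23.6 CPM in the other TSLP mature libraries, its B cell markers (7 genes) 166 CPM against 17.6 and 19.7 CPM, and its dendritic cell markers (4 genes) 226 CPM against 74.8 and 77.5 CPM. Of the last sum H2-Ab1 alone held 222 CPM, while Flt3 was lower there, at 1.1 CPM against 3.7 and 3.4 CPM. Siglech and Xcr1 were at most 1.99 CPM in the TSLP mature libraries. Where leaving out TSLP mature 1 changed the call of a tetraspanin, the value without it is also given. CPM here are counts scaled by library size after TMM normalisation, a gene is said to be called when its Benjamini-Hochberg adjusted p from the quasi-likelihood test of edgeR was under 0.05, and a log2 fold change is the value of the first-named group over that of the second.

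Per length of transcript, Cd63 had the highest mean of the 7 tetraspanins in all 4 groups and Cd151 the lowest. The scale of this comparison is CPM per kb of RefSeq mRNA (median length of the gene's mRNAs, from 1.05 kb for Cd63 to 1.74 kb for Cd53). On it Cd63 stood at 1597 ± 133 (SD, n = 3) in immature and 1360 ± 58.6 in mature IL-3 cells, and at 1206 ± 20.2 in immature and 1162 ± 433 in mature TSLP cells. Cd9 and Cd53 came next in every group. Cd9 was at 259 ± 7.84, 742 ± 83.9, 438 ± 74.8 and 878 ± 239 CPM per kb in the same order of groups, and Cd53 at 287 ± 37.8, 775 ± 187, 341 ± 19.5 and 549 ± 25.5. Cd53 had the higher mean of this pair in IL-3 cells and Cd9 in TSLP cells. Single IL-3 libraries were mixed. Cd9 was above Cd53 in IL-3 immature 3 (261 and 244) and in IL-3 mature 2 (756 and 690) and 3 (652 and 645). Cd82 and Cd37 followed, with Cd37 higher in the immature groups and the means of both genes close in IL-3 mature cells (139 ± 16.5 and 129 ± 19.2 CPM per kb) and TSLP mature cells (158 ± 4.91 and 175 ± 32.5). Cd81 stayed between 12.3 and 26.8 and Cd151 between 2.99 and 10.8 CPM per kb over the 12 libraries. In TSLP mature 1, 2 and 3, Cd63 was at 1663, 918 and 906 CPM per kb, the last level with Cd9 (905). In CPM without length, Cd53 was above Cd63 in IL-3 mature 1 (1720 and 1478). In TSLP mature 3, Cd9 (1113 CPM) and Cd53 (979 CPM) were above Cd63 (951 CPM). Whether counts of these libraries scale with transcript length was not tested.

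**Figure D1:**
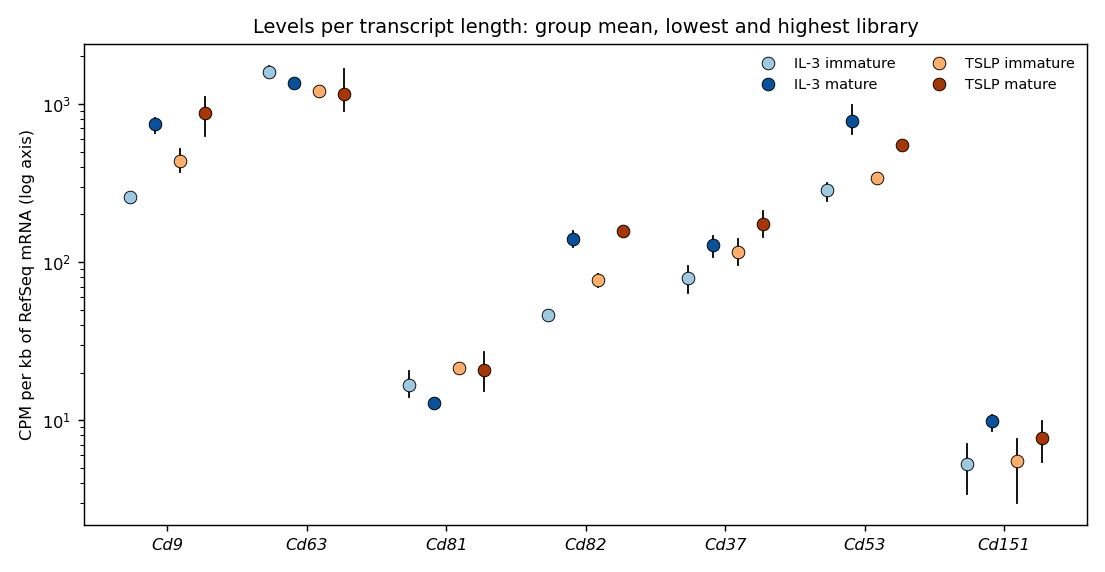
Levels of the 7 tetraspanins per transcript length in CPM per kb of RefSeq mRNA (log axis), as the group mean (point) with the lowest and highest of 3 libraries (line). Cd63 has the highest mean in each group and Cd151 the lowest, and Cd9, Cd82 and Cd53 are higher in mature (dark) than in immature (light) cells of both cultures.

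Cd63 therefore made up less of the summed tetraspanin signal in mature cells. Its share of the CPM per kb of the 7 genes was 68.1% to 71.1% in immature against 39.8% to 47% in mature IL-3 libraries, and 51.8% to 56.3% in immature against 33.1% to 44.5% in mature TSLP libraries. The share of Cd9 was 10.8% to 11.7%, 22.2% to 24.9%, 17.6% to 22.1% and 26.3% to 33.1% in the same order of groups. Neither gene's shares overlapped between immature and mature cells of the same culture.

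Of the members, 5 were called between mature and immature cells of the IL-3 cultures, and each was higher in mature cells. These 5 of 7 compare with 46.2% of all tested genes called in that comparison, of which 24.1% were higher and 22.1% lower in mature cells. Cd82, Cd9 and Cd53 were 2.70-fold to 3.02-fold higher, and Cd151 and Cd37 1.82-fold and 1.64-fold. The study had picked Cd9 from single-cell data of IL-3 cultures as a possible surrogate of the sorting marker CD49b. By its flow cytometry, cells of the mature gate were mostly low in CLEC12A and high in CD9. The Cd9 difference is thus not independent of the sort. In the TSLP cultures 4 of 7 were called, again all higher in mature cells (Cd82, Cd9, Cd53 and Cd37), against 25.1% of all genes, with 12.9% higher and 12.2% lower. The median log2 fold change of the 7 was 0.86 with IL-3 and 0.59 with TSLP, beside 0.06 and 0.03 over all tested genes. Cd63 and Cd81 were called in neither. In bulk samples, fewer cells that carry a transcript and less of it per cell cannot be told apart.

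**Figure D2:**
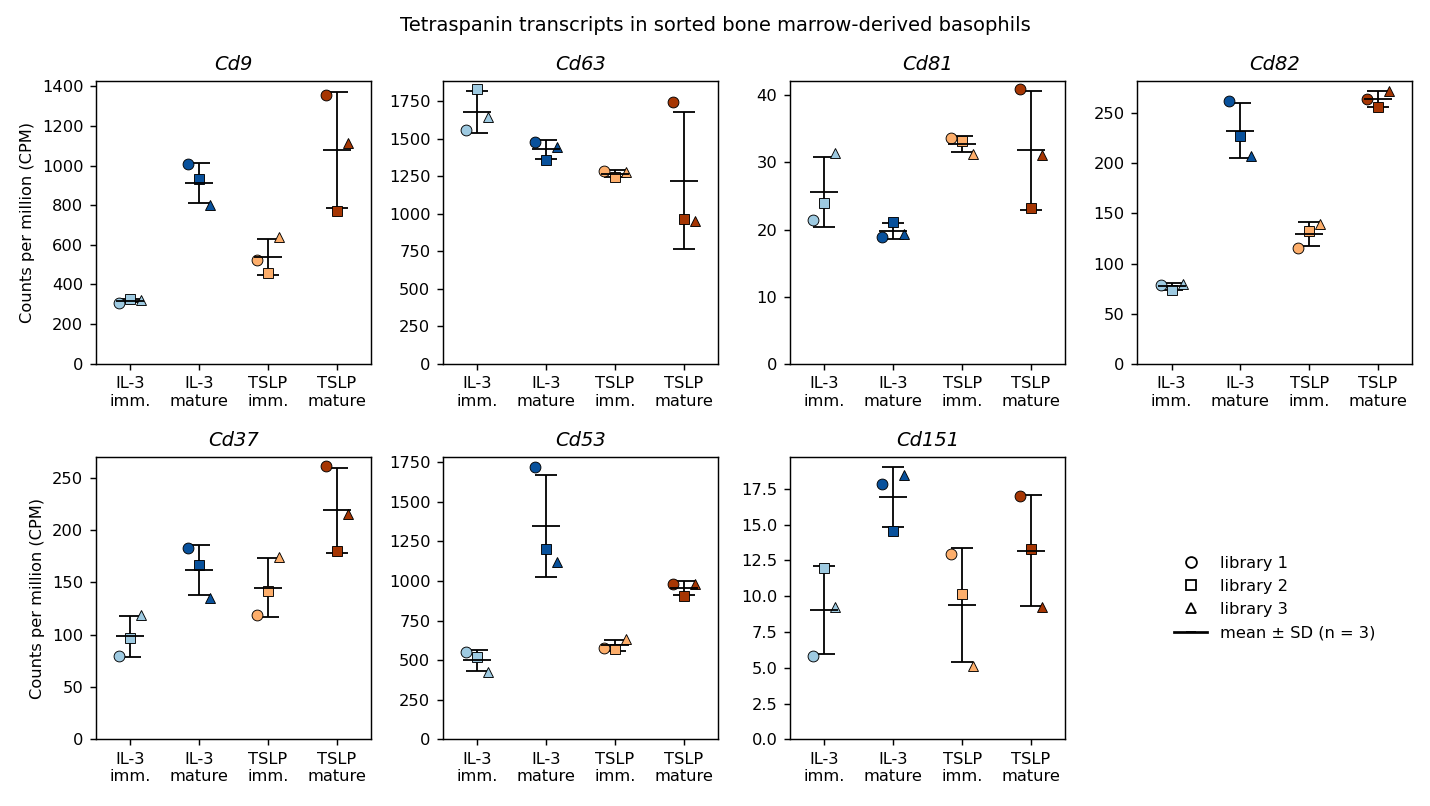
Counts-per-million (CPM, linear axes from 0) of each tetraspanin in the 12 libraries, with the symbol giving the library number and the bars the mean ± SD of 3 libraries. Cd9, Cd82, Cd37 and Cd53 show mature libraries above all immature libraries of the same culture, while in Cd63 the library TSLP mature 1 stands at 1746 CPM above the other TSLP mature libraries. How many of all tested genes separate in this way was not counted.

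Cd9 lies on mouse chromosome 6 (GRCm38, chr6:125460266-125494791, minus strand), and its product joins integrins and immunoglobulin-superfamily partners at the cell surface and is best known from sperm-egg fusion, platelets and extracellular vesicles. In IL-3 immature cells it was at 308, 327 and 322 CPM, and in IL-3 mature cells at 1006, 930 and 802 CPM. In TSLP immature cells it was at 522, 457 and 638 CPM, and in TSLP mature cells at 1356, 771 and 1113 CPM. Mature and immature libraries did not overlap in either culture, and TSLP immature libraries all lay above IL-3 immature ones. The log2 fold change of mature over immature cells was 1.52 ± 0.21 (SE) in IL-3 cultures, a 2.86-fold difference (95% confidence interval 2.09 to 3.92, edgeR adjusted p = 2.6e-05), and 1.00 ± 0.21 with TSLP (edgeR adjusted p = 0.00235).

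Among immature cells, Cd9 was 1.69-fold higher with TSLP than with IL-3 (log2 0.76 ± 0.21, edgeR adjusted p = 0.0261), and it was 1 of 2 members called there. The call was lost when IL-3 immature 1, 2 or 3, IL-3 mature 2 or TSLP immature 1 or 3 was left out, with adjusted p from 0.0547 to 0.152, while the log2 fold change stayed between 0.61 and 0.82. Among mature cells the groups overlapped and Cd9 was not called (log2 0.24 ± 0.21, edgeR adjusted p = 0.428), and without TSLP mature 1 the difference was -0.04. From low to high, Cd9 therefore ran from IL-3 immature through TSLP immature to the mature groups, whose order did not exceed their spread. The 3 genes that followed Cd9 most closely over the 12 libraries in log2 CPM were Ftl1 (ferritin light chain, r = 0.99), Ostf1 (r = 0.987) and Cnn2 (a calponin that binds actin, r = 0.985), where the libraries share the contrast of stage and so these values are descriptions.

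Cd82 (chr2:93419111-93463140, minus strand) encodes a tetraspanin known as a suppressor of metastasis and as a regulator of integrin-based adhesion, and its fold changes had the smallest SE of the 7 in every comparison. Its levels were 78.6, 73.1 and 79.8 CPM in IL-3 immature and 262, 228 and 208 CPM in IL-3 mature cells. In TSLP cultures they were 116, 133 and 140 CPM in immature and 264, 256 and 272 CPM in mature cells. The mature libraries lay above every immature library of both cultures. The difference was 3.02-fold in IL-3 cultures (95% interval 2.37 to 3.83, log2 1.59 ± 0.16, edgeR adjusted p = 8.64e-07) and 2.04-fold with TSLP (1.61 to 2.57, log2 1.03 ± 0.16, edgeR adjusted p = 0.000178).

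Cd82 was also 1.68-fold higher in TSLP than in IL-3 immature cells (log2 0.75 ± 0.16, edgeR adjusted p = 0.00695), a call that was kept whichever of the 12 libraries was left out. In mature cells it was not called (log2 0.18 ± 0.16, edgeR adjusted p = 0.428, 95% interval of the fold 0.902 to 1.43). Its calls in both maturation comparisons and in immature cells were kept under all alternatives run. As for Cd9, the levels ran from IL-3 immature through TSLP immature to the mature groups, which overlapped. Cd82 moved closely with Cd9 across the libraries (r = 0.964, n = 12), and its nearest genes were AI467606 (r = 0.989), Capg (an actin-capping protein, r = 0.989) and Actg1 (gamma-actin, r = 0.988).

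Cd53 (chr3:106759921-106790149, minus strand) and Cd37 (chr7:45233632-45239115, minus strand) encode the members largely confined to blood cells, and both are known for roles in leukocyte adhesion and receptor signalling. Cd53 was at 550, 522 and 424 CPM in IL-3 immature and at 1720, 1201 and 1123 CPM in IL-3 mature cells. In TSLP cultures it was at 574, 573 and 632 CPM in immature and 983, 905 and 979 CPM in mature cells. All mature libraries lay above all immature ones, and the IL-3 mature libraries lay above the TSLP mature ones. The maturation difference was 2.70-fold with IL-3 (log2 1.44 ± 0.19, edgeR adjusted p = 1.68e-05) and 1.61-fold with TSLP (log2 0.69 ± 0.19, edgeR adjusted p = 0.0144).

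Cd53 was the member with the largest difference between these maturation effects (log2 -0.75 ± 0.27), with an unadjusted p of 0.0135 and an edgeR adjusted p of 0.139, so it was not called. Between mature cells Cd53 was lower with TSLP by log2 -0.50 ± 0.19, which also missed the threshold (edgeR adjusted p = 0.0678) although the groups did not overlap. That value passed the threshold without TSLP mature 1 (log2 -0.60, edgeR adjusted p = 0.0273), without IL-3 immature 1 or 3 (adjusted p = 0.045 and 0.0411) and without IL-3 mature 3 (0.0398), and it was called by DESeq2. The TSLP maturation call was lost without TSLP immature 1 (edgeR adjusted p = 0.0884), TSLP immature 2 (0.0875) or TSLP mature 3 (0.0538). The order of the groups, from low to high, was thus IL-3 immature, TSLP immature, TSLP mature and IL-3 mature, with no called difference between the immature groups or between the mature groups. The genes nearest to Cd53 were Arpc5 (a subunit of the Arp2/3 complex, r = 0.987), Btk (a tyrosine kinase of immune receptor signalling, r = 0.98) and Osbpl9 (r = 0.975).

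Cd37 was at 80.1, 96.6 and 119 CPM in IL-3 immature and 182, 167 and 135 CPM in IL-3 mature cells. It was at 119, 142 and 174 CPM in TSLP immature and 261, 180 and 215 CPM in TSLP mature cells. Mature libraries lay above the immature ones of the same culture, with a small gap in both. The difference was 1.64-fold with IL-3 (log2 0.71 ± 0.21, edgeR adjusted p = 0.0109) and 1.51-fold with TSLP (log2 0.59 ± 0.21, edgeR adjusted p = 0.0458). The IL-3 call was lost without IL-3 immature 1 (adjusted p = 0.0614), IL-3 immature 2 (0.0536) or IL-3 mature 2 (0.0503). The TSLP call was lost on leaving out any library other than TSLP mature 2, with adjusted p up to 0.261 and a value of log2 0.35 without TSLP mature 1, and it was lost under 6 other settings.

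Between cytokines Cd37 was not called in immature cells (log2 0.56 ± 0.21, edgeR adjusted p = 0.0914), although all TSLP libraries were above the IL-3 ones by a gap of less than 1 CPM. It was not called in mature cells either (log2 0.44 ± 0.21, edgeR adjusted p = 0.135). Neighbouring groups in the order IL-3 immature, TSLP immature, IL-3 mature and TSLP mature touched or overlapped. The nearest genes were Rgs19 (a regulator of G protein signalling, r = 0.97), Lypla2 (r = 0.968) and Lime1 (r = 0.965). The ratio of Cd37 to Cd53 differed between groups. Libraries held 10.6 to 13.9 Cd37 counts for each 100 Cd53 counts in IL-3 mature cells, against 14.6 to 28 in IL-3 immature, 19.9 to 26.5 in TSLP mature and 20.7 to 27.6 in TSLP immature cells. The IL-3 mature libraries lay below all others in this ratio, which was chosen after the values were seen and was not tested.

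Cd63 (chr10:128900989-128912822, plus strand), the granule and late endosome tetraspanin, did not follow these genes. It was at 1556, 1830 and 1646 CPM in IL-3 immature and 1478, 1359 and 1446 CPM in IL-3 mature cells. In TSLP cultures it was at 1281, 1242 and 1276 CPM in immature cells and at 1746, 964 and 951 CPM in mature cells. The first of these TSLP mature values was above every other TSLP library and the remaining pair was below every library of the other groups. The maturation difference was log2 -0.23 ± 0.22 with IL-3 (95% interval of the fold 0.619 to 1.17, edgeR adjusted p = 0.401) and -0.05 ± 0.22 with TSLP (0.701 to 1.32, edgeR adjusted p = 0.887), neither called.

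The result for Cd63 in TSLP cultures rested on TSLP mature 1. Without that library Cd63 was called lower in mature than in immature TSLP cells (log2 -0.50, edgeR adjusted p = 0.0191), lower in TSLP than in IL-3 mature cells (-0.66, adjusted p = 0.00459) and lower in TSLP than in IL-3 immature cells (-0.44, adjusted p = 0.0278). With all libraries the last comparison gave -0.41 ± 0.22 (edgeR adjusted p = 0.232), where the groups did not overlap, and the call was also made when only these 2 groups were fitted (adjusted p = 0.0496). The neutrophil and B cell markers and the H2-Ab1 that were high in this library are those given above, and their part in its Cd63 level was not tested. The genes nearest to Cd63 were Ndufb9 (a subunit of respiratory complex I, r = 0.931), Abracl (r = 0.93) and Eef1b2 (a translation elongation factor subunit, r = 0.93), and Cd63 ran weakly against Cd9 over the 12 libraries (r = -0.347).

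The ratio of Cd9 to Cd63 within a library is free of scaling between libraries. There were 17.9 to 19.8 Cd9 counts for each 100 Cd63 counts in IL-3 immature, 36.8 to 50 in TSLP immature, 55.4 to 68.4 in IL-3 mature and 77.7 to 117 in TSLP mature libraries. The 4 groups did not overlap, and TSLP mature 1, with 77.7, lay next to TSLP mature 2, with 80.0. This ratio was also chosen after the values were seen, so its order is a description.

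**Figure D3:**
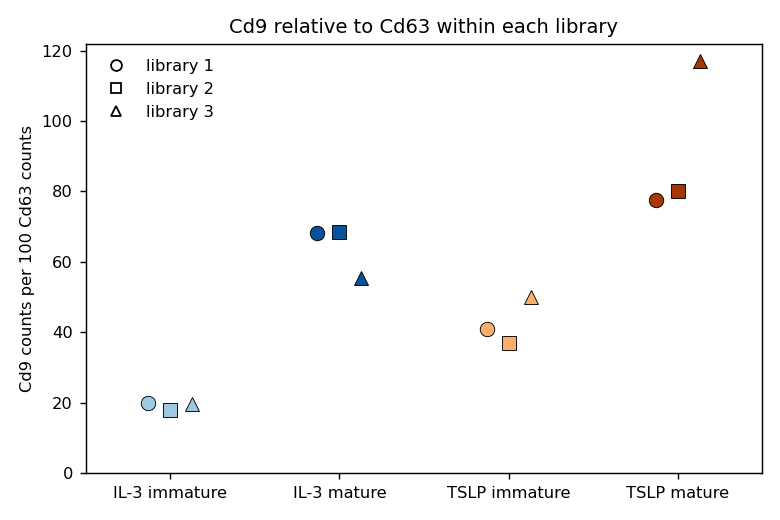
Cd9 counts per 100 Cd63 counts in each of the 12 libraries (linear axis from 0, symbol for the library number). The 4 groups occupy separate ranges, from 17.9 to 19.8 in IL-3 immature up to 77.7 to 117 in TSLP mature libraries.

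Cd81 (chr7:143052739-143067934, plus strand), a close relative of CD9, was a low transcript in these cells. It was at 21.4, 24.0 and 31.5 CPM in IL-3 immature and 18.9, 21.1 and 19.4 CPM in IL-3 mature cells, from 43 to 95 counts a library. In TSLP cultures it was at 33.7, 33.2 and 31.3 CPM in immature and 41.0, 23.3 and 31.1 CPM in mature cells. The spread within TSLP mature cells covered the whole range of the TSLP immature ones. Neither maturation difference was called (log2 -0.38 ± 0.23, edgeR adjusted p = 0.186 with IL-3 and -0.04 ± 0.21, adjusted p = 0.913 with TSLP).

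Cd81 was the 1 member of 7 called between mature cells of the 2 cytokines, at 1.61-fold higher with TSLP (log2 0.68 ± 0.22, edgeR adjusted p = 0.0349), where 24.3% of all genes were called, 12.4% higher and 11.9% lower. The call was kept on leaving out TSLP mature 2 and was lost on leaving out any other single library, with adjusted p from 0.0508 to 0.204, and DESeq2 did not call it (adjusted p = 0.0519). Without TSLP mature 1, in which the B cell markers were highest, the value was log2 0.37. All 3 of the B cell genes tested were called higher with TSLP in mature cells, with and without that library, and their part in the Cd81 difference was not tested. Cd81 had no called difference in immature cells (log2 0.35 ± 0.22, edgeR adjusted p = 0.316). Its nearest genes were Uqcrfs1 (a subunit of respiratory complex III, r = 0.947), Pgls (r = 0.936) and Prelid1 (r = 0.926).

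Cd151 (chr7:141467392-141471473, plus strand), known as the tetraspanin that binds laminin-binding integrins, was the lowest of the 7 with 12 to 63 counts a library. It was at 5.82, 12 and 9.27 CPM in IL-3 immature and 17.8, 14.6 and 18.5 CPM in IL-3 mature cells, which did not overlap. In TSLP cultures it was at 12.9, 10.2 and 5.11 CPM in immature and 17.0, 13.3 and 9.23 CPM in mature cells, which did overlap. The IL-3 difference was 1.82-fold (log2 0.86 ± 0.33, edgeR adjusted p = 0.0439). It was not called under 5 other settings (adjusted p from 0.0605 to 0.0904) or without IL-3 immature 1 or 3, IL-3 mature 1, 2 or 3, TSLP immature 1 or 2, or TSLP mature 2 (adjusted p from 0.0597 to 0.165). With TSLP the difference was log2 0.49 ± 0.33 (edgeR adjusted p = 0.308) and 0.16 without TSLP mature 1, and the cytokines differed by log2 0.02 ± 0.35 in immature and -0.35 ± 0.31 in mature cells, neither called. Hvcn1 (a voltage-gated proton channel, r = 0.96), Hexim1 (r = 0.896) and Nmb (r = 0.863) were its nearest genes.

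**Figure D4:**
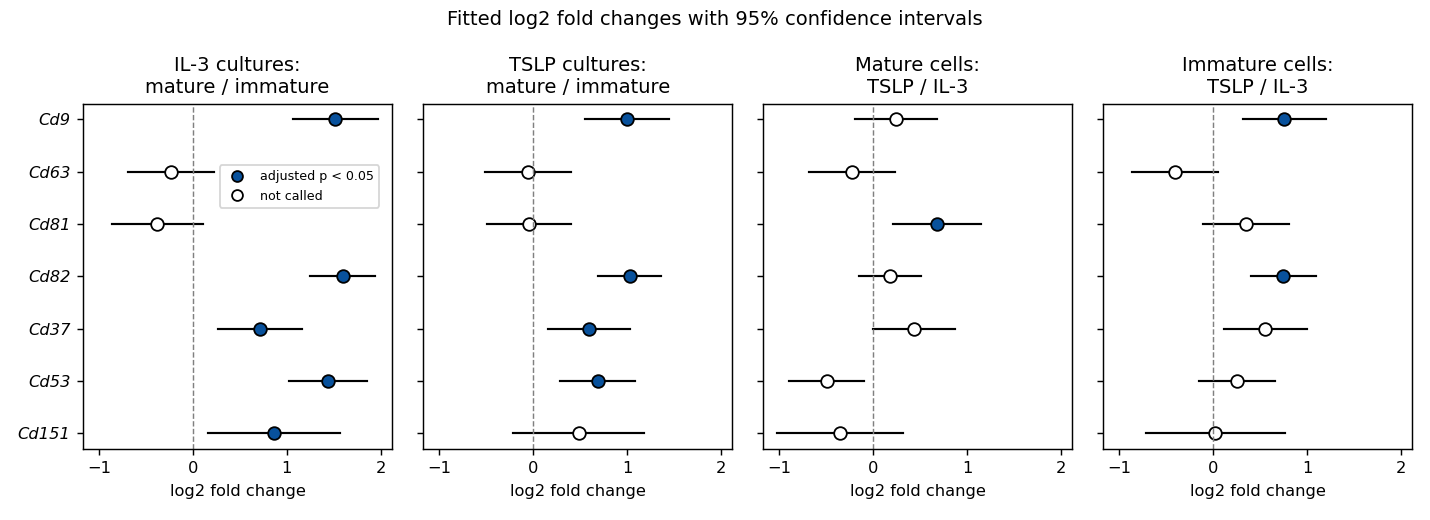
Log2 fold changes of the 7 tetraspanins with 95% confidence intervals in 4 comparisons of 3 against 3 libraries, filled where edgeR called the gene at an adjusted p under 0.05. Cd9, Cd82, Cd53 and Cd37 are filled in both maturation panels, while Cd81 is the sole filled point between mature cells of the 2 cytokines, at 0.68.

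Over the members, then, 1 was called between cytokines in mature cells and 2 in immature cells, where 13.3% of all genes were called, 7.38% higher and 5.90% lower with TSLP. The medians of the 7 were 0.18 and 0.35, beside 0.09 and 0.04 over all tested genes. B cell markers moved with the cytokine. Their sum was 6.0 to 7.28 CPM in immature and 0.902 to 2.55 CPM in mature IL-3 libraries, against 33.2 to 39.8 CPM in TSLP immature and the 17.6 to 166 CPM of TSLP mature libraries. In immature cells 1 of the 3 tested (Ms4a1) was called higher with TSLP, and 3 without TSLP mature 1. The part of such cells in the differences of Cd9, Cd82 and Cd81 between cytokines was not tested. These comparisons share their groups with the maturation comparisons, so that the values of a gene in them are not independent. For the difference of the maturation effect between TSLP and IL-3 cultures, edgeR called 0 of the 7, DESeq2 called 0, and 2 (Cd53 and Cd82) had an unadjusted p under 0.05 in edgeR. Over all genes 4.19% were called there, 2.04% more positive and 2.15% more negative with TSLP. The estimate was negative for Cd9 (-0.52 ± 0.30), Cd82 (-0.56 ± 0.22), Cd53, Cd37 (-0.12 ± 0.29) and Cd151 (-0.38 ± 0.47), with edgeR adjusted p from 0.139 to 0.883.

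Markers of other myeloid cells moved with the same contrast. Of a list of 5 macrophage and monocyte genes (Csf1r, Adgre1, Ly6c2, C1qa and C1qb), 3 were called higher in mature cells with IL-3 and 5 with TSLP, counts that did not change without TSLP mature 1. Their sum was 16.9 to 39.8 CPM in immature and 226 to 314 CPM in mature IL-3 libraries, and 90.2 to 122 CPM in immature and 356 to 604 CPM in mature TSLP libraries, the order of the Cd9 group means. Adgre1 and Ly6c2 had the highest values of the 5 in each mature library, and C1qa was between 0 and 12.4 CPM in every library. The summed neutrophil markers were 727 to 802 CPM in IL-3 immature and 182 to 274 CPM in IL-3 mature libraries, with 1 of the 7 tested genes called higher (Ly6g) and 1 lower. The lower one, Mpo, was at 651 to 760 CPM in immature and at most 2.85 CPM in mature IL-3 libraries, while S100a8, not called with all 12 libraries, was at 11.9 to 28.3 and 47.7 to 86.9 CPM. In TSLP immature libraries the sum was 314 to 400 CPM, and all 7 genes were called between mature and immature TSLP cells, 6 higher and Mpo lower. Without TSLP mature 1 a single one was called with TSLP, lower, and all 7 with IL-3, 6 higher and 1 lower. The platelet genes Pf4, Gp9 and Ppbp, read here because platelets are rich in CD9, were each under 12 CPM in 10 libraries, while Ppbp was at 30.1 CPM in TSLP immature 1 and 43.7 CPM in TSLP mature 1. Itga2b, the remaining gene of that list, was at 583 to 1072 CPM over the 12 libraries. It was called higher with TSLP in mature cells (log2 0.64, edgeR adjusted p = 0.0142). The part of such cells in the tetraspanin levels was not tested.

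Sequence bears on how firmly counts can be assigned. Of the 50-base stretches of the RefSeq-matched transcripts, 30.9% of those of Cd63 also occurred in the pseudogene Cd63-ps and 1.19% of those of Cd9 in Cd9-ps, against 0 for the other 5 genes, and neither pseudogene had a row in the count table. The levels of Cd63 are uncertain to that extent. Genes that overlap Cd9, Cd81, Cd37 and Cd151 exons on the opposite strand (Gm26728, R74862, Tead2 and Gm10575) had at most 2 counts in any library. The ribosomal entries Rn18s and Rn28s1 together held 98.2% to 99.9% of the number of counts of Rn45s, their shared precursor, in each library, while Rn45s took 7.43% to 20.2% of the counts. The 3 entries together took 14.7% to 25% of the counts in IL-3 immature and 20.2% to 24.5% in IL-3 mature libraries. They took 35% to 40.1% in TSLP immature libraries, and 17.3%, 31.5% and 34.7% in TSLP mature 1, 2 and 3.

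The start-site windows printed here belong to the genes called in both maturation comparisons (Cd9, Cd53, Cd37 and Cd82) and, beside them, to the abundant member that was not called (Cd63). Of the 4 windows of Cd82, the third is shown because it holds GAGGAAGT, which the others lack. They hold 250 bases before to 50 bases after the RefSeq start site on GRCm38.p6, and RefSeq listed 11 such windows for the 7 genes. Searched on both strands were TTCNNNGAA (the STAT motif), AGATAA and TGATAA (forms of the GATA motif that share their last letters), TGANTCA (the AP-1 motif), GAGGAAGT (a motif of the ETS factor PU.1) and GGGCGG (the GC box). The last of these and GAGGAAGT were added after the windows had been read. Capitals mark the matches, and a match is a run of letters, not a shown binding site.
Cd9 (chr6:125494711-125495010, minus strand): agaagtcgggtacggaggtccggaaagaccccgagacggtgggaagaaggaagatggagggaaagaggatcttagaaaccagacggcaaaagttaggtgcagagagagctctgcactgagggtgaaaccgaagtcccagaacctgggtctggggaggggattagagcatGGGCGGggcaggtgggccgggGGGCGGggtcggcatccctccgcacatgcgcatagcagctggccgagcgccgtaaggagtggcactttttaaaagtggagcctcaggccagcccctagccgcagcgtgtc
Cd53 (chr3:106790100-106790399, minus strand): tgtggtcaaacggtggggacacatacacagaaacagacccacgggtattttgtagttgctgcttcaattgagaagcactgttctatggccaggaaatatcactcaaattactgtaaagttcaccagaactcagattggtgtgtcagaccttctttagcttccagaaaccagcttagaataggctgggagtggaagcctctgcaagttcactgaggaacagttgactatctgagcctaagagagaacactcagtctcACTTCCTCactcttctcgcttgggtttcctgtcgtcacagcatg
Cd37 (chr7:45238790-45239089, minus strand): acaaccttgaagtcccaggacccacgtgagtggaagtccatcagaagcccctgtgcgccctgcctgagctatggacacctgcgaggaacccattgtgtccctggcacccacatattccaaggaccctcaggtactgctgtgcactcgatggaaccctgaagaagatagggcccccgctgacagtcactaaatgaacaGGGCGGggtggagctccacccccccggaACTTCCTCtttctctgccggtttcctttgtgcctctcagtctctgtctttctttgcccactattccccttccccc
Cd82, start 3 of 4 (chr2:93461802-93462101, minus strand): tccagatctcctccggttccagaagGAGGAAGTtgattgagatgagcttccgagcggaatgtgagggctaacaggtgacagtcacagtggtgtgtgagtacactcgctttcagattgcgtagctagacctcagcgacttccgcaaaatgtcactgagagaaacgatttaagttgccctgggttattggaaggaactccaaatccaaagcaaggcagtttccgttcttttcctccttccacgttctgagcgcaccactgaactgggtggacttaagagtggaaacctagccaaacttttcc
Cd63 (chr10:128909095-128909394, plus strand): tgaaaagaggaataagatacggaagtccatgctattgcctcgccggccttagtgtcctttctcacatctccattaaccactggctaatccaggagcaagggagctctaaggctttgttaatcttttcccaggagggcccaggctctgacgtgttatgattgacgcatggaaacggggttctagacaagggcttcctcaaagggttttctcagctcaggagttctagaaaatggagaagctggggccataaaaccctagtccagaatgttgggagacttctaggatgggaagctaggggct

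The windows of Cd9 and Cd53 differed in base composition, with 61.3% and 46.3% G and C. Cd9 held 2 GC boxes, at -81 and -60 counted from the first transcribed base as 0. GAGGAAGT was found at position 6 of Cd53, at -25 of Cd37 and at -225 of the third Cd82 start, that is in 3 of the 11 windows, and it occurs in 3.2% of the 32851 promoter windows of the mouse set. The GC box was in 6 of the 11, those of Cd9, Cd81 and Cd37, the first of Cd151 and the first and second of Cd82, and in 35.7% of all windows. GAGGAAGT and the GC box were chosen after these windows had been read, so their counts beside the shares are descriptions. TTCNNNGAA was found once, at position 1 of the fourth Cd82 start, where 8.3% of all windows hold it. AGATAA was in none of the 11 and in 11.2% of all windows. The other GATA form was likewise in none, against 9.05% of all windows, and the AP-1 motif in none, against 7.81%. The window of Cd63 held none of the 6 motifs.

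Of 26 further tetraspanin genes, 24 were in the table and 10 were tested, while the other 14 had at most 9 counts in any library. In IL-3 cultures 6 of the 10 were called, 3 higher and 3 lower in mature cells, beside 46.2% of all genes called there, 24.1% higher and 22.1% lower. The median log2 fold change of the 10 was -0.13. The 3 that rose were Tspan17 (log2 1.63 ± 0.25, edgeR adjusted p = 5.95e-05), Tspan5 (0.48 ± 0.18) and Tspan14 (0.45 ± 0.18), all of the TspanC8 group that escorts the protease ADAM10. The transcript of that protease, Adam10, chosen here after its values were seen, differed by log2 0.07 (edgeR adjusted p = 0.842). Rom1, which is best known from photoreceptor discs, fell the most, from 192 to 314 CPM in immature down to 22.2 to 26 CPM in mature IL-3 libraries (log2 -3.29 ± 0.33, edgeR adjusted p = 6.02e-07), followed by Tspan4 (-2.12 ± 0.41), known from migrasomes, and Tspan32 (-0.91 ± 0.18), a tetraspanin of blood cells.

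In TSLP cultures 4 of the 10 were called, against 25.1% of all genes, with a median of -0.07. Rom1 (log2 -3.13 ± 0.35), Tspan4 (-0.92 ± 0.31) and Tspan32 (-0.80 ± 0.17) were lower in mature cells there too, and Tspan31 was higher (0.86 ± 0.19, edgeR adjusted p = 0.00384). Tspan17 was the 1 gene of the 10 whose maturation effect was called different between cultures (log2 -1.32 ± 0.35, edgeR adjusted p = 0.046). Of all tested genes 4.19% were called in that comparison. Tspan17 was at 24.8 to 26.6 CPM in IL-3 mature and 9.65 to 14.03 CPM in TSLP mature libraries. Between mature cells 5 were called, against 24.3% of all genes, with Tspan4 (log2 1.80), Tspan13 (0.96) and Tspan31 (0.83) higher and Rom1 (-1.78) and Tspan17 (-1.03) lower with TSLP. Between immature cells 2 were called, against 13.3%, Tspan13 higher (0.67) and Rom1 lower (-1.93). Leaving out TSLP mature 1 left each of these counts as it was.

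**Figure D5:**
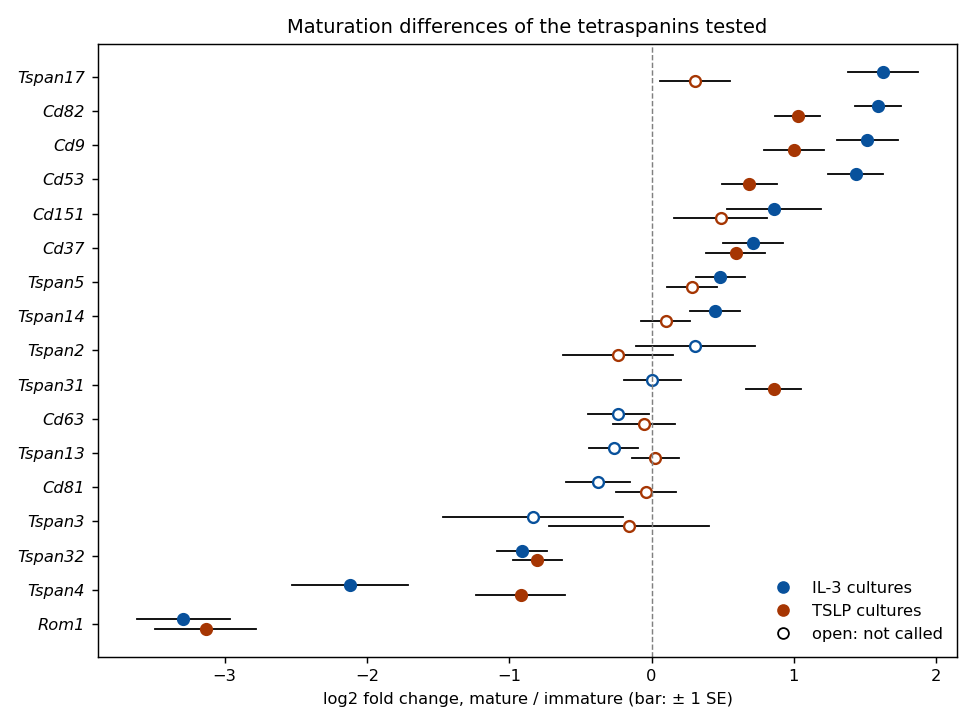
Log2 fold change of mature over immature cells for the 17 tetraspanins tested, in IL-3 (blue) and TSLP (brown) cultures, with bars of ± 1 SE and open points where the gene was not called. Rom1 lies lowest in both cultures, near -3, and Tspan17 and Tspan31 are each filled in a single culture.

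Of 27 listed partners that tetraspanins bind, 20 were tested and 13 were called in IL-3 cultures, 10 higher and 3 lower in mature cells, where 46.2% of all genes were called, 24.1% higher and 22.1% lower. The median log2 fold change of the 20 was 0.62. Itgb1, the integrin beta 1 chain, went from 142 to 738 CPM (group means, log2 2.37 ± 0.18, edgeR adjusted p = 3.58e-08), Ifitm1, an interferon-induced protein that associates with CD81, from 740 to 4098 CPM (2.47 ± 0.31), and Itga2 by log2 3.18 ± 0.28. Itga2 and the lower Fcer1a (log2 -0.64 ± 0.24) encode the proteins used for the sort, so that their difference is what the gate selected. Itga4, an integrin chain that binds VCAM-1, fell (log2 -1.24 ± 0.20), as did Ms4a2, the beta chain of the IgE receptor (-0.68 ± 0.17). With TSLP 6 were called, 5 higher and 1 lower (median 0.21), and 7 without TSLP mature 1, against 25.1% of all genes. They were led by Cd36 (log2 3.03 ± 1.06), Adgrg1 (an adhesion receptor that binds CD9 and CD81, 1.01 ± 0.16) and Itga2 (0.96 ± 0.25), with Ms4a2 lower (-0.51 ± 0.17). Cd36 was at 18.6 CPM in TSLP mature 1 and at 1.14 and 3.08 CPM in the other TSLP mature libraries, and without TSLP mature 1 it was not called (log2 1.06, edgeR adjusted p = 0.471).

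In 3 partners the maturation effect was called smaller with TSLP than with IL-3, namely Itga2 (log2 -2.22 ± 0.37), Ifitm1 (-2.15 ± 0.42) and Itgb1 (-1.47 ± 0.25), with edgeR adjusted p of 0.00287, 0.00817 and 0.00302, where 4.19% of all genes were called. Of these, Itga2 encodes a protein used for the sort. Without TSLP mature 1 the calls were 5, all smaller with TSLP. Among mature cells 6 partners were called (median -0.04), against 24.3% of all genes, with Icam1 (log2 1.31) and Adgrg1 (0.48) higher and Ifitm1 (-1.38), Itga6 (-0.88) and Itgb1 (-0.86) leading the 4 that were lower with TSLP. Adgrg1 was not called there without TSLP mature 1 (log2 0.42, edgeR adjusted p = 0.0609). Among immature cells 5 were called (median 0.16), against 13.3%, with Itga2 (1.67), Itgb2 (0.70) and Itgb1 (0.61) the largest of 4 higher ones and Itga4 (-0.72) lower.

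Of 22 listed genes of granule release, the process in which CD63 is read, all were tested and 12 were called in IL-3 cultures, 10 higher and 2 lower in mature cells, with a median of 0.45, beside 46.2% of all genes called, 24.1% higher and 22.1% lower. Cd63 itself was not called. Stx11, a syntaxin of cytotoxic granule fusion, rose from 3.29 to 32.1 CPM (log2 3.24 ± 0.28, edgeR adjusted p = 1.6e-07), Lyst, which governs the size of lysosome-related granules, by log2 1.92 ± 0.32, and Stxbp3 by 1.19 ± 0.37. Stxbp3 was low, with 36 counts over the IL-3 immature and 76 over the IL-3 mature libraries. These groups overlapped in it, at 2.32 to 7.28 and 7.12 to 13.1 CPM. Rab27b, a GTPase of granule docking, fell by 1.27 ± 0.28 on the log2 scale. With TSLP 4 were called (median 0.23), against 25.1% of all genes, Stx11 (log2 2.12), Lyst (0.96) and Stx4a (0.56) higher and Rab27b lower (-2.06 ± 0.34). Without TSLP mature 1 Stx4a was not called (log2 0.29, edgeR adjusted p = 0.179), and the 4 calls were 2 higher and 2 lower.

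Rab27b was also lower with TSLP in immature (log2 -1.39, edgeR adjusted p = 0.00384) and mature cells (-2.17, adjusted p = 0.000626), from 41.4 CPM in IL-3 immature to 3.81 CPM in TSLP mature cells in group means. In mature cells it was 1 of 2 genes of the list that were called, where 24.3% of all genes were. Without TSLP mature 1 the list had 5 calls there, all lower with TSLP. In immature cells 3 were called, against 13.3%, with Stx11 (1.11) and Snap23 (0.69) higher. The list's median was -0.10 in mature and 0.13 in immature cells.

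Of 11 genes of extracellular vesicle formation, a pathway whose vesicles carry CD9, CD63 and CD81, 10 were tested. Flot1, a flotillin of membrane rafts, was called higher in mature cells of both cultures (log2 1.14 ± 0.20 with IL-3 and 0.78 ± 0.20 with TSLP) and higher with TSLP in immature cells (0.66 ± 0.20). With IL-3, Stam (0.74) and Chmp4b (0.68) were the others of 3 called higher, and with TSLP these were Hgs (0.69) and Sdcbp (0.56), the latter encoding syntenin, an adaptor of CD63. The 3 of 10 called stand beside 46.2% and 25.1% of all genes. In mature cells Sdcbp was higher (0.58) and Chmp4b lower (-0.52) with TSLP, the 2 called of 10, against 24.3% of all genes. The list's medians were 0.32, 0.28, 0.10 and 0.11 in the order IL-3 maturation, TSLP maturation, mature cells and immature cells.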

How the data were processed

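RNA of 12 sorted basophil libraries was sequenced on an Ion Proton after oligo(dT) capture and whole-transcriptome amplification. Per the methods, the authors trimmed reads with Cutadapt, aligned them with Bowtie2 to mouse reference RNA (GRCm38, though the labels list other builds too) and deposited raw counts per gene symbol. How reads fitting several transcripts were counted, and whether strand was used, is not given in the sources used here. The table's 1 unnamed row, 50% of each column and equal to the sum of the rest, was left out.

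edgeR 4.0.16 (R 4.3.3) was fitted to all 12 libraries with 4 group means, filterByExpr (minimum count 10, total 15) and TMM. The common biological coefficient of variation was 20.4%. SEs were derived from the F statistic, and 95% intervals from its degrees of freedom. DESeq2 1.42.0 was an alternative. The tests were tested on simulated data. The members and lists were chosen with earlier results of these data known. Besides the members, the 3 called genes of each list with the largest change per direction were named, and the 3 genes of at least 10 CPM on average with the highest Pearson r to each member (log2 CPM, prior count 2). Loci are from GENCODE M21 (GRCm38) and promoter windows from RefSeq (GRCm38.p6). With 3 libraries per group, p-values set a difference against the spread between libraries, estimated over all 4 groups and shared in part across genes. A gene of the granule release list is not reported here by name.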

Additional observations from a re-analysis of the deposited data

Results flagged for a closer look

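The maturation difference was called unequal between the cytokines by the interaction term of edgeR for 6 genes named beside the tetraspanins. The log2 difference of the effects, TSLP minus IL-3, was -1.32 for Tspan17, -2.22 for Itga2, -2.15 for Ifitm1 and -1.47 for Itgb1, and among the macrophage markers -2.65 for Adgre1 and -1.87 for Ly6c2. Itga2 encodes the sorting marker CD49b, so its maturation differences are what the gate selected. These were 1 of 10 further tetraspanins, 3 of 20 partners and 2 of 5 macrophage genes, beside 4.19% of all tested genes. The fold change of mature over immature cells was higher in IL-3 than in TSLP cultures for each of these 6, and without TSLP mature 1 each was still called. Adgre1 and Ly6c2 started low with IL-3, at means of 4.04 and 8.08 CPM in immature and 93.8 and 140 CPM in mature cells. With TSLP their means were higher at both stages, at 51.4 and 41.7 CPM in immature and 195 and 201 CPM in mature cells. None of the 7 tetraspanins was in this set by edgeR or DESeq2, while Cd53 and Cd82, 2 of the 7, had an unadjusted p under 0.05 in edgeR. Groups of 3 libraries are too small for a test of single libraries that stand apart.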

How the results depend on the processing

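The maturation calls of Cd9 and Cd82 in both cultures and of Cd53 in IL-3 cultures were kept under each of the normalisation, filter, DESeq2, block and leave-one-out alternatives run, and Cd53 in TSLP cultures under all but 3 of them. Outside the leave-one-out fits, the number of members called moved by more than 1.5 times in mature cells alone, from 1 to 0 with TMM on uncalled genes, to 2 with a filter of 10 CPM in 3 libraries and to 0 when only the 2 groups were fitted, which also called 1714 genes over the table in place of 2634. Without Rn45s, a setting that kept Rn18s and Rn28s1, the count there stayed at 1, with Cd53 called in place of Cd81. It went from 5 to 4 in IL-3 maturation under 5 settings, by the loss of Cd151, and from 4 to 3 in TSLP maturation under 6, by the loss of Cd37, and from 2 to 3 in immature cells with only the 2 groups fitted, by the gain of Cd63. The value of Cd151 in immature cells, log2 0.02, changed sign under DESeq2 size factors (-0.024), without Rn45s (-0.0029), with the 10 CPM filter (-0.017), with only the 2 groups (-0.013), with DESeq2 (-0.014) and with the replicate block (-0.024).

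Leaving out 1 library gave 4193 to 5676 genes called in IL-3 maturation, 1774 to 3456 in TSLP maturation, 1658 to 2968 in mature cells, 588 to 2243 in immature cells and 240 to 723 for the difference of effects. Members called ran from 3 to 5, 2 to 4, 0 to 2 and 1 to 3 in the first 4 of these. Signs changed within the ranges of Cd63 in TSLP maturation (-0.498 to 0.0505) and in the difference of effects (-0.22 to 0.33), Cd81 in TSLP maturation (-0.368 to 0.0832), Cd9 in mature cells (-0.0382 to 0.39) and Cd151 in immature cells (-0.34 to 0.31). The cause of these changes was not tested.

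Whether libraries of the same number share a culture is not stated and was not tested. Of 18 same-number pairs, 7 had a correlation of deviations over 0.1 (range -0.0769 to 0.388), and 8 of 12 libraries lay closest to their own number. With the replicate block the genes called were 5251, 3067, 2853, 1893 and 556, against 5020, 2731, 2634, 1443 and 455 without it. The members called were 5, 4, 1, 2 and 0 with and without the block.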
